A study of Mus musculus with 13 samples.

Results

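The genes examined are 10 mouse genes that write, copy, guide or remove DNA methylation: Dnmt1, Dnmt3a, Dnmt3b, Dnmt3l, Uhrf1, Hells, Tet1, Tet2, Tet3 and Tdg. They were chosen by symbol, and all 10 are among the 20662 genes listed in the spermatogonial tables. RNA came from testes of 8-week-old C57BL/6 mice, described as wild type, and was depleted of ribosomal RNA before directional libraries were made. The series has 13 samples: 2 of spermatogonia, 5 of spermatocytes, 5 of spermatids and 1 of mature sperm. The 2 spermatogonial samples, titled KIT_AGSC and THY1_AGSC, were analysed, and the other 11 were not analysed here. KIT is the stem cell factor receptor of differentiating spermatogonia, and THY1 is a surface antigen used to enrich undifferentiated spermatogonia. The labels name no transgene, treatment or number of animals for either sample.

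Each library stands alone in its group, so no difference below has a replicate check or a p-value. The deposited table of the sample titled KIT carries the column heading Thy1, and the table of the sample titled THY1 carries the heading Kit. Kit itself was listed at 0 FPKM in the KIT-labelled library and at 36.7 FPKM in the THY1-labelled library. Thy1 was at 78.8 FPKM in the KIT-labelled library and at 0.723 FPKM in the THY1-labelled library. Both antigens thus ran against the titles. Titles are followed here, the libraries are written as KIT-labelled and THY1-labelled, and every direction would turn if the titles were exchanged. FPKM scales fragments to transcript length and to the mapped fragments of the library. The noncoding RNA Rpph1 held 71.8% of the summed FPKM in the KIT-labelled library and 37.9% in the THY1-labelled library. An exact 0 was listed for 33.2% of genes in the KIT-labelled library and for 24.2% in the THY1-labelled library, and is given below only as listed at 0.

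DNA methylation in mammals is the addition of a methyl group to cytosine, mostly where cytosine precedes guanine (CpG). Dnmt1 copies the mark to the new strand at replication. It is brought there by Uhrf1, which binds hemimethylated CpG, while the remodelling ATPase Hells opens nucleosomal DNA for methylation. Dnmt3a and Dnmt3b set new marks, and Dnmt3l, which has no catalytic activity of its own, stimulates them in germ cells. The Tet dioxygenases oxidise methylcytosine, and Tdg excises the most oxidised forms so that base excision repair can restore plain cytosine. In the male germ line the bulk of new methylation is laid down in fetal and perinatal prospermatogonia, before the spermatogonial stages sampled here.

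Tet1 was at a higher level in the KIT-labelled library, and most of the genes that copy or set methylation were at lower levels there than in the THY1-labelled library. Of the 10 genes, 8 reached 1 FPKM in at least 1 library. Among these 8, 2 were higher by at least 2-fold in the KIT-labelled library (Tet1 and Dnmt3l), 5 were so in the THY1-labelled library (Dnmt1, Uhrf1, Hells, Dnmt3a and Dnmt3b), and Tet3 lay within 2-fold. Folds were taken on the log2(FPKM + 1) scale, which understates differences of low genes. Of all 15573 genes that reached 1 FPKM, 39.5% were higher by at least 2-fold in the KIT-labelled library and 41.1% in the THY1-labelled library, so 80.6% were that far apart in either direction. The count of 7 in 8 is near this background and says nothing particular about the set. The median difference of the 8 genes, labelled KIT minus labelled THY1, was -1.63, beside -0.0026 for all genes. Without the genes listed at 0 in a library it was -1.28 over 5 genes, beside 0.42 for all such genes.

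**Figure D1:**
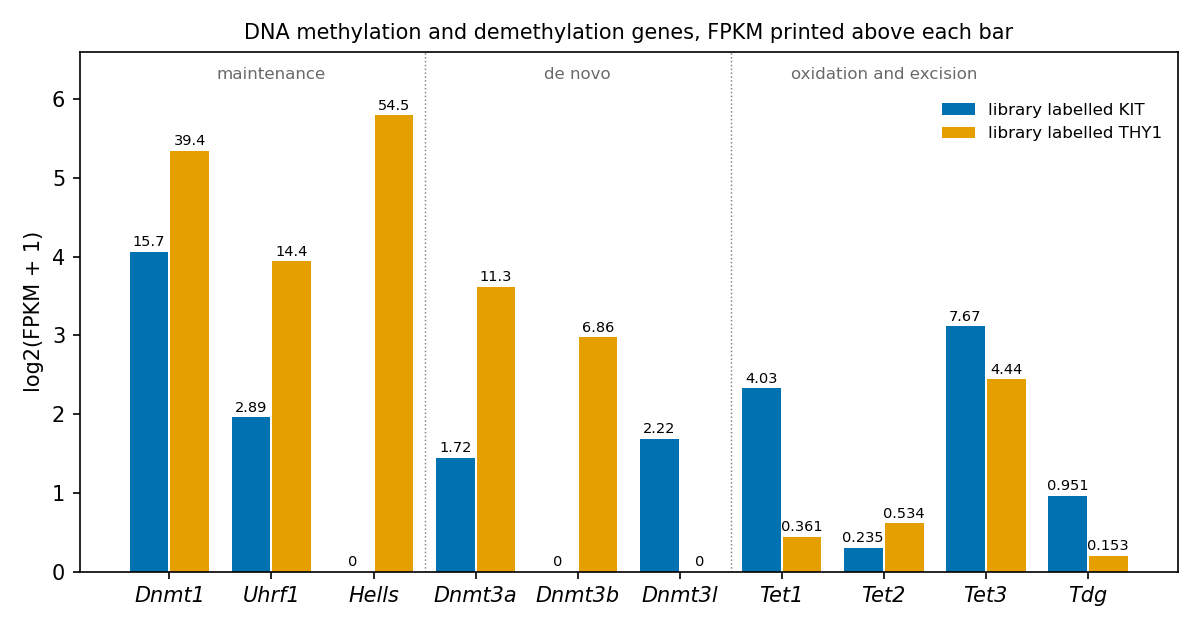
Level of each gene on the log2(FPKM + 1) axis, in the KIT-labelled library (left bar) and the THY1-labelled library (right bar), with the FPKM printed above each bar. The 3 maintenance genes have their lower bar in the KIT-labelled library, and Tet1 stands at 4.03 FPKM there against 0.361 FPKM in the THY1-labelled library.

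Depth decides how firmly each value can be read. Total fragments are not given, so the worth of 1 fragment was estimated from the product of FPKM and transcript length, taking percentile 5 over genes above 0 that have a single annotated transcript over 1000 bases. That worth was 6.41 times larger in the KIT-labelled library, which is therefore the shallower one. By this estimate, using the longest coding transcript of each gene, 3 of the 10 genes were worth at least 10 fragments in the KIT-labelled library (Dnmt1, Tet1 and Tet3), and 8 were in the THY1-labelled library. Dnmt1, Tet1 and Tet3 were thus the 3 genes with that depth in both libraries. The estimate has no interval and covers neither isoform use nor fragments assigned to several genes. It was not made for the genes of the lists below, where a low value or a listed 0 can reflect shallow depth.

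**Figure D2:**
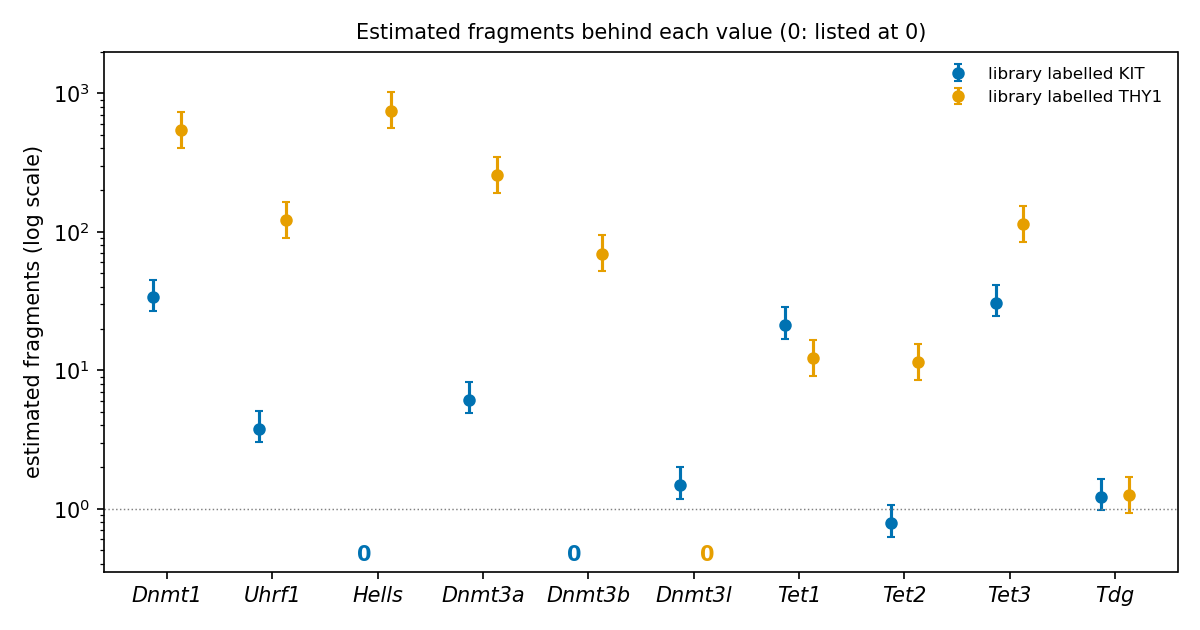
Estimated fragments behind each value on a log axis, with the KIT-labelled library left of the THY1-labelled library. Points use percentile 5 for the worth of 1 fragment and bars run from the estimate at percentile 10 to that at percentile 2. Dnmt3l, Tet2 and Tdg lie near 1 fragment in the KIT-labelled library.

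Dnmt1, Tet3 and Tet1 had the 3 highest levels of the set in the KIT-labelled library, and the maintenance genes Hells, Dnmt1 and Uhrf1 had them in the THY1-labelled library. Windows before the start sites of the maintenance genes are shown because each of the 3 genes had a start with the same short motif. RefSeq start sites on GRCm38.p6 gave 17 windows of 250 bases for the 10 genes. They were searched on both strands for TTTNNCGC, a loose form of the site bound by E2F, the factor family of S phase entry. N stands for any base, so a match can depart from that site in its middle bases. The motif was picked after some of these sequences had been seen. It was present in 4 of the 17 windows, which belong to Dnmt1, Uhrf1 (both start sites) and Hells, and in 4.28% of all 32851 windows of that length. Since the motif was picked from these sequences and holds a CpG, this share is not a fair comparison: the matched windows hold 10 to 30 CpG, against a median of 6, and 8.37% of windows with at least 10 CpG hold the motif. A match is a string of letters and not a measured binding site. In the lines below the capitals mark the match, which for Dnmt1 is a pair of overlapping matches on the other strand. The window of Uhrf1 lies outside annotated exons. The 30 bases of Dnmt1, of the other Uhrf1 start and of Hells come from windows that overlap exons of GENCODE M21.
Uhrf1, chr17:56304063-56304312, plus strand: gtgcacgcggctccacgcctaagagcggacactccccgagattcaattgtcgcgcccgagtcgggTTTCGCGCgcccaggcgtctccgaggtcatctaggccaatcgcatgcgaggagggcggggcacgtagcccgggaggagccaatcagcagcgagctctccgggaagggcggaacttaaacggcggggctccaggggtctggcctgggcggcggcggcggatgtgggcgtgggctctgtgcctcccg
Uhrf1, other start, chr17:56303270-56303299, plus strand: gccccacttgcTTTCTCGCttcccgccaca
Hells, chr19:38930917-38930946, plus strand: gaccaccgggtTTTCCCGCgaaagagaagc
Dnmt1, chr9:20952823-20952852, minus strand: gtttccgcgcGCGCGAAAAAgccggggtct

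Dnmt1, the maintenance methyltransferase, was at 15.7 FPKM in the KIT-labelled library and at 39.4 FPKM in the THY1-labelled library, a ratio of 0.397. Its value was worth about 33.6 fragments in the KIT-labelled library and 543 in the THY1-labelled library, more than most of the set in both. It was the highest of the 10 genes in the KIT-labelled library, above 78.4% of all listed genes, and stood above 85.9% of them in the THY1-labelled library. Uhrf1, whose product recruits Dnmt1 to hemimethylated DNA, was at 2.89 FPKM in the KIT-labelled library and at 14.4 FPKM in the THY1-labelled library. The ratio was 0.201, but the first value was worth only about 3.79 fragments. Part of the Uhrf1 transcript is also shared with a near-identical copy, Gm5648, at 98.3% identity over 1590 bases, so fragments could have been divided between them.

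Hells, the remodeller, was listed at 0 in the KIT-labelled library and was the highest of the 10 genes in the THY1-labelled library, at 54.5 FPKM and about 749 fragments. The same FPKM in the KIT-labelled library would have been worth about 117 fragments. Within the THY1-labelled library its level was 1.38 times that of Dnmt1. Relative to Dnmt1 in the same library, Uhrf1 was 0.185 of its level in the KIT-labelled library and 0.364 in the THY1-labelled library. These ratios are free of the scaling between libraries.

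Of the de novo genes, both catalytic enzymes had lower values in the KIT-labelled library than in the THY1-labelled library. Dnmt3a was at 1.72 FPKM in the KIT-labelled library and at 11.3 FPKM in the THY1-labelled library, a ratio of 0.153 from about 6.11 and 255 fragments. The antisense gene Dnmt3aos overlaps an exon of Dnmt3a, and whether strand was used in counting is not given in the sources used here. Dnmt3b was listed at 0 in the KIT-labelled library and at 6.86 FPKM in the THY1-labelled library, where it was worth about 69.5 fragments. That level would have been worth about 10.8 fragments in the KIT-labelled library, so the listed 0 there stands against a modest number. The cofactor Dnmt3l was at 2.22 FPKM in the KIT-labelled library and listed at 0 in the THY1-labelled library. Its value was worth about 1.48 fragments, so its direction cannot be read. The same FPKM in the THY1-labelled library would have been worth about 9.48 fragments. Aire, which overlaps Dnmt3l on the other strand, was listed at 0 in the KIT-labelled library and at 0.146 FPKM in the THY1-labelled library.

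The windows before the starts of Dnmt3b and Dnmt3l, each listed at 0 in 1 library, are shown for their CpG content, as a description of sequence that nothing in the levels was tied to. The window of Dnmt3b held 21 CpG, more than 83.7% of all windows of 250 bases, and that of Dnmt3l held 4, more than 37.8% of them, beside a median of 6. The other Dnmt3l starts had 5 and 3 CpG. The remaining genes ranged from 2 CpG at a Dnmt1 start to 51 at the Tet2 start. Methylation itself was not analysed here. Both windows lie outside annotated exons, and capitals mark each CpG.
Dnmt3b, chr2:153649199-153649448, plus strand: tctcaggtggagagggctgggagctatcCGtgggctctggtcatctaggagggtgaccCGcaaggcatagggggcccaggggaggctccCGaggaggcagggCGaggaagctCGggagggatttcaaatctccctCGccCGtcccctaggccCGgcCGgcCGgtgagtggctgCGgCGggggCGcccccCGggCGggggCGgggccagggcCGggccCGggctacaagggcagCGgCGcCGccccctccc
Dnmt3l, chr10:78049592-78049841, plus strand: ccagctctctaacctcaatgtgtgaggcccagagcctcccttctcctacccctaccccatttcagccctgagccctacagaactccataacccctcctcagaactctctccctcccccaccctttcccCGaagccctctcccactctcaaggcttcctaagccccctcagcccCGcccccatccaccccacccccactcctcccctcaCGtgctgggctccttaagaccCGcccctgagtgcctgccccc

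Tet3 had the highest level of the Tet genes in each library, above 67.7% of all listed genes in the KIT-labelled library and above 54.4% in the THY1-labelled library. Tet3 was at 7.67 FPKM in the KIT-labelled library and at 4.44 FPKM in the THY1-labelled library, a ratio of 1.73 from about 30.6 and 113 fragments. Tet1 was at 4.03 FPKM in the KIT-labelled library and at 0.361 FPKM in the THY1-labelled library, a ratio of 11.2. Its long transcript put about 21.2 fragments behind the value in the KIT-labelled library and 12.2 behind that in the THY1-labelled library. With percentile 10 as the worth of 1 fragment, the value in the THY1-labelled library came to 9.07 fragments, under the 10 used above, and Tet3 would then be the only gene with that depth in both and a higher value in the KIT-labelled library. Tet2 stayed below 1 FPKM, at 0.235 FPKM in the KIT-labelled library (about 0.789 fragments) and at 0.534 FPKM in the THY1-labelled library (about 11.5 fragments). Tdg, the glycosylase, was at 0.951 FPKM in the KIT-labelled library and at 0.153 FPKM in the THY1-labelled library. Both Tdg values were worth about 1 fragment (1.22 and 1.26). Its transcript also has 4 near-identical copies elsewhere, the closest being Tdg-ps at 98.7% over 2968 bases, so Tdg is uncertain in both libraries. Glt8d2, which overlaps Tdg on the other strand, was at 18.1 FPKM in the KIT-labelled library and 3.89 FPKM in the THY1-labelled library.

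Sums within a library compare the families without regard to scaling. The catalytic methyltransferases Dnmt1, Dnmt3a and Dnmt3b summed to 17.4 FPKM in the KIT-labelled library and 57.6 FPKM in the THY1-labelled library. Tet1, Tet2 and Tet3 summed to 11.9 FPKM in the KIT-labelled library and 5.33 FPKM in the THY1-labelled library. The methyltransferase sum was therefore 1.46 times the Tet sum in the KIT-labelled library and 10.8 times the Tet sum in the THY1-labelled library. Dnmt1 and Tet3 had the most estimated fragments of the set in the KIT-labelled library. Dnmt1 stood at 2.04 times the level of Tet3 there and at 8.89 times in the THY1-labelled library. The makeup of the families differed as well, though some of the shares rest on few estimated fragments. In the KIT-labelled library Dnmt3a was worth about 6.11 fragments, and the level of Dnmt3b in the THY1-labelled library would have been worth about 10.8. In the THY1-labelled library Tet1 was worth about 12.2 fragments. Tet1 gave 33.7% of the Tet sum in the KIT-labelled library and 6.77% in the THY1-labelled library. Dnmt1 gave 90.1% of the methyltransferase sum in the KIT-labelled library and 68.5% in the THY1-labelled library, where Dnmt3a added 19.5% and Dnmt3b 11.9%.

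**Figure D3:**
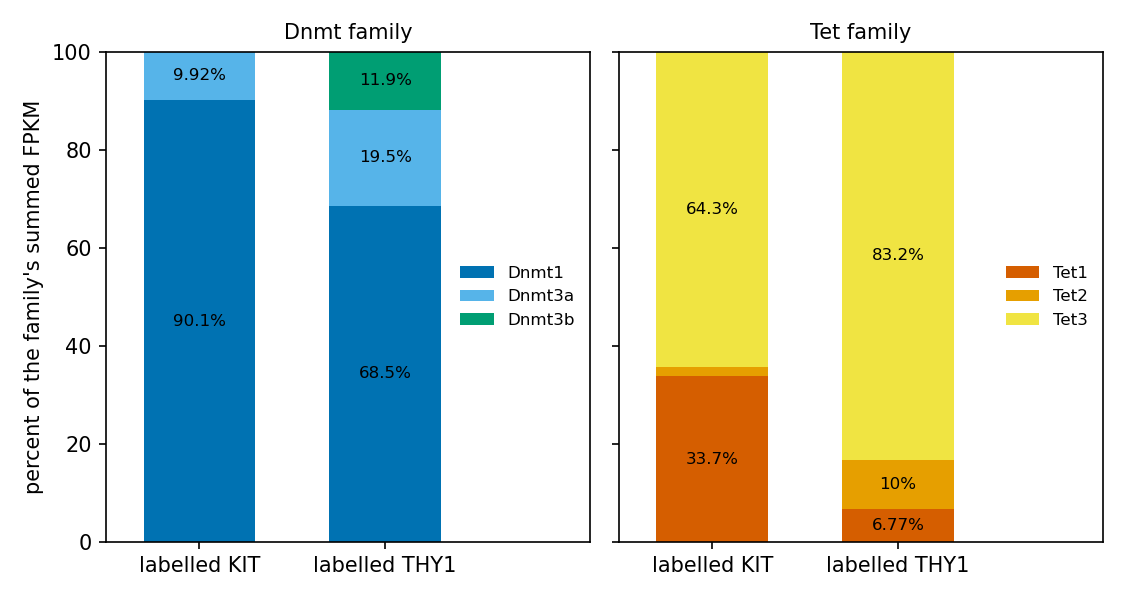
Share of each gene in the summed FPKM of Dnmt1, Dnmt3a and Dnmt3b (left panel) and of the 3 Tet genes (right panel), as percent, with the KIT-labelled library left of the THY1-labelled library. Tet3 holds the largest Tet share in both libraries, at 64.3% in the KIT-labelled and 83.2% in the THY1-labelled library, and Tet1 has 33.7% in the KIT-labelled library.

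Partners of maintenance methylation were divided. Of 10 listed genes 9 reached 1 FPKM, and 2 of them were higher by at least 2-fold in the KIT-labelled library, 4 were so in the THY1-labelled library and 3 lay within 2-fold. The median difference was -0.90. Usp7, a deubiquitinase that binds Uhrf1 and Dnmt1, was at 4.30 FPKM in the KIT-labelled library and 192 FPKM in the THY1-labelled library. The deacetylase Hdac2 was at 3.86 FPKM in the KIT-labelled library and 103 FPKM in the THY1-labelled library. Lig1, the ligase of Okazaki fragments, was listed at 0 in the KIT-labelled library and at 28.6 FPKM in the THY1-labelled library. Pcna, the replication clamp, and the deacetylase Hdac1, named because they are the 2 that were higher in the KIT-labelled library, were at 19.3 and 12.7 FPKM there and at 3.97 and 1.91 FPKM in the THY1-labelled library. The share of 4 in 9 is near the 41.1% of all genes, so nothing particular to these partners was seen.

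S phase genes share their timing with Dnmt1 and Uhrf1. All 13 reached 1 FPKM, 2 were higher by at least 2-fold in the KIT-labelled library, 9 were so in the THY1-labelled library and 2 lay within 2-fold, beside 39.5% and 41.1% of all genes. The median was -2.99 (-1.48 over the 10 above 0 in both, beside 0.42 for all such genes). Top2a, a topoisomerase of dividing cells, was at 1.35 FPKM in the KIT-labelled library and 116 FPKM in the THY1-labelled library. The ribonucleotide reductase subunit Rrm1 was at 0.667 FPKM in the KIT-labelled library and 55.8 FPKM in the THY1-labelled library, and the helicase subunit Mcm3 was listed at 0 in the KIT-labelled library and at 19.2 FPKM in the THY1-labelled library. Ccna2, the cyclin of S and G2 phase, was highest by mean and lay just within 2-fold on the log2(FPKM + 1) scale, at 96.6 FPKM in the KIT-labelled library and 47.8 FPKM in the THY1-labelled library. The 2 genes higher in the KIT-labelled library, named for that reason, were the cyclin Ccne1, at 41.9 FPKM there and 11.2 FPKM in the THY1-labelled library, and the helicase subunit Mcm7, at 16.6 FPKM there and 5.53 FPKM in the THY1-labelled library. The part of these genes in the levels of the maintenance genes was not tested.

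Factors that recruit or block the de novo enzymes had 4 of 11 usable genes higher by at least 2-fold in the KIT-labelled library and 6 in the THY1-labelled library. Their median was -1.85, which came to -0.88 over the 10 genes above 0 in both. For this list and the next, the shares of all genes were 39.5% and 41.1%. The median of all genes above 0 in both was 0.42. Ehmt2 and Ehmt1, partner methyltransferases of histone H3 lysine 9, were at 1.80 FPKM and a listed 0 in the KIT-labelled library, and at 95.7 and 28.1 FPKM in the THY1-labelled library. Cxxc1, which binds unmethylated CpG, was at 4.85 FPKM in the KIT-labelled library and 48.2 FPKM in the THY1-labelled library. Kdm1a, a histone demethylase, was highest by mean and stood on the other side, at 213 FPKM in the KIT-labelled library and 89.9 FPKM in the THY1-labelled library. Of 9 genes for methylation directed at transposons 7 were listed, none of them was higher by 2-fold in the KIT-labelled library and 5 were in the THY1-labelled library, with a median of -2.44 (-1.62 over the 4 above 0 in both). Piwil2 was at 1.67 FPKM in the KIT-labelled library and 39.3 FPKM in the THY1-labelled library. Mael and Morc1 were listed at 0 in the KIT-labelled library and at 889 and 5.82 FPKM in the THY1-labelled library.

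Downstream of Tdg, base excision repair genes lay on both sides. Of 10 usable genes 3 were higher by at least 2-fold in the KIT-labelled library and 6 in the THY1-labelled library. For this list and the next, the shares of all genes were 39.5% and 41.1%. The median of the repair genes was -1.57. It came to -0.0014 over the 7 above 0 in both, beside 0.42 for all such genes. DNA polymerase beta (Polb), which fills the gap, was listed at 0 in the KIT-labelled library and at 355 FPKM in the THY1-labelled library. Parp1, the nick sensor, was at 0.616 FPKM in the KIT-labelled library and 118 FPKM in the THY1-labelled library, and the glycosylase Nthl1 was listed at 0 in the KIT-labelled library and at 5.53 FPKM in the THY1-labelled library. The abasic endonuclease Apex1 was at 508 FPKM in the KIT-labelled library and 192 FPKM in the THY1-labelled library. Genes tied to Tet cofactors had none of 5 usable members higher by 2-fold in the KIT-labelled library and 4 in the THY1-labelled library, with a median of -2.98, on the opposite side from Tet1. Idh1 and Idh2, which make the Tet cosubstrate 2-oxoglutarate, were at 1.21 and 4.08 FPKM in the KIT-labelled library and at 217 and 39.0 FPKM in the THY1-labelled library. Ogt, the glycosyltransferase that binds Tet proteins, was at 1.23 FPKM in the KIT-labelled library and 61.7 FPKM in the THY1-labelled library.

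Readers, donor supply and other proposed factors had medians near 0. Beside their counts, 39.5% of all genes were higher by at least 2-fold in the KIT-labelled library and 41.1% in the THY1-labelled library. Of 5 usable methyl-CpG readers 1 was higher by at least 2-fold in the KIT-labelled library and 2 in the THY1-labelled library (median 0.13). Mbd2 was at 8.24 FPKM in the KIT-labelled library and 37.6 FPKM in the THY1-labelled library, and Mbd1 at 13.1 FPKM in the KIT-labelled library and 41.98 FPKM in the THY1-labelled library. Mbd3, of the NuRD complex, was at 26.1 FPKM in the KIT-labelled library and 23.8 FPKM in the THY1-labelled library. Of 12 usable genes of methyl donor supply 6 were that much higher in the KIT-labelled library and 6 in the THY1-labelled library (median 0.049). Methionine synthase Mtr and its reactivating enzyme Mtrr were listed at 0 in the KIT-labelled library and at 44.7 and 10.6 FPKM in the THY1-labelled library. Ahcyl1 was at 0.810 FPKM in the KIT-labelled library and 79.6 FPKM in the THY1-labelled library. Among other proposed demethylation factors 1 of 7 was higher by at least 2-fold in the KIT-labelled library and 2 in the THY1-labelled library (median -0.015). Apobec2 was at 94.3 FPKM in the KIT-labelled library and 7.36 FPKM in the THY1-labelled library, whereas Gadd45b was at 9.14 FPKM in the KIT-labelled library and 55.8 FPKM in the THY1-labelled library, and Gadd45g at 4.54 FPKM in the KIT-labelled library and 20.5 FPKM in the THY1-labelled library.

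**Figure D4:**
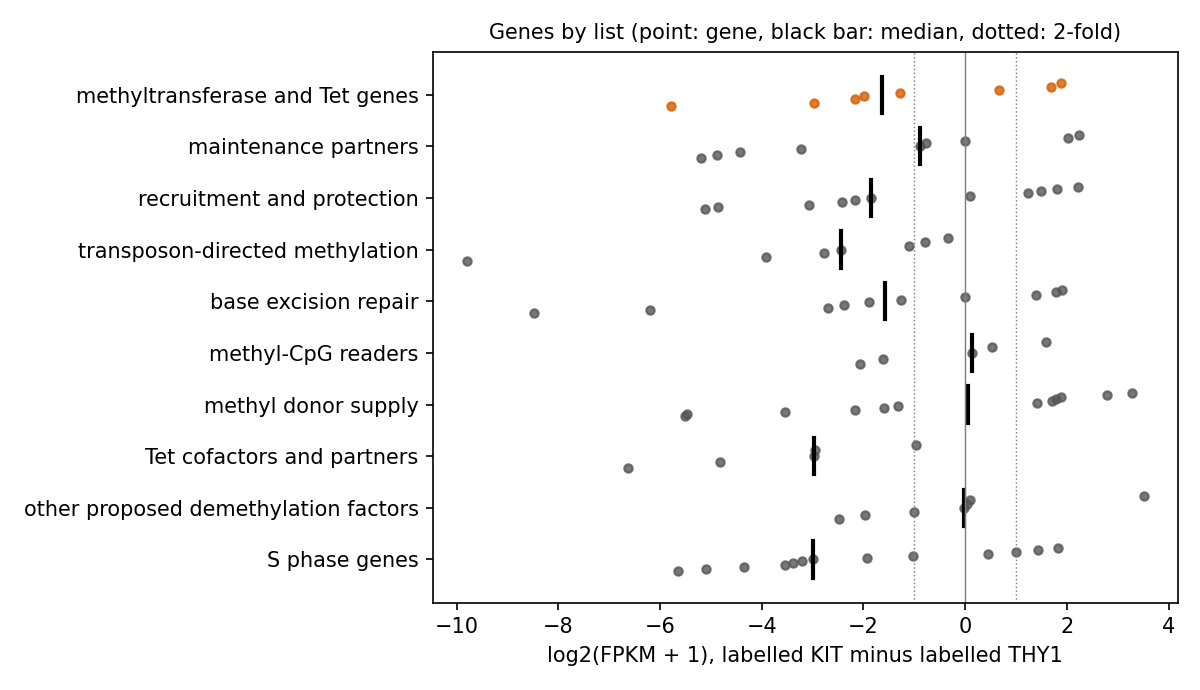
Difference on the log2(FPKM + 1) scale, labelled KIT minus labelled THY1, for each usable gene of the methyltransferase and Tet set (top row) and of 9 related lists, with black bars at the medians and dotted lines at 2-fold. Genes on the left are higher in the THY1-labelled library, and the S phase row has its median at -2.99.

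Marker lists of the cells that a testis sample could hold did not all run one way. For all marker counts below, the shares of all genes were 39.5% higher in the KIT-labelled library and 41.1% in the THY1-labelled library. Of 10 spermatocyte markers 1 was higher by at least 2-fold in the KIT-labelled library and 9 in the THY1-labelled library. Their summed level was 135 FPKM in the KIT-labelled library, with Dmc1 and Hormad1 listed at 0, and 1172 FPKM in the THY1-labelled library. Of 7 listed Leydig cell markers none was higher by 2-fold in the KIT-labelled library and 6 were in the THY1-labelled library, with sums of 165 FPKM in the KIT-labelled library (Hsd3b6 and Hsd17b3 listed at 0) and 6469 FPKM in the THY1-labelled library. These 2 lists lay on the side of the maintenance genes.

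Of 9 usable spermatogonial markers 4 were higher by at least 2-fold in the KIT-labelled library and 4 in the THY1-labelled library, with sums of 191 FPKM in the KIT-labelled library and 106 FPKM in the THY1-labelled library. The 4 higher in the KIT-labelled library are tied to undifferentiated spermatogonia: Nanos2 was at 54.1 FPKM in the KIT-labelled library and 1.49 FPKM in the THY1-labelled library, and Nanos3 at 118 FPKM in the KIT-labelled library and 2.74 FPKM in the THY1-labelled library. Gfra1, the GDNF receptor, was at 3.91 FPKM in the KIT-labelled library and 0.102 FPKM in the THY1-labelled library, and Id4 at 3.75 FPKM in the KIT-labelled library and 0.936 FPKM in the THY1-labelled library. Stra8, induced by retinoic acid at differentiation, was at 0.743 FPKM in the KIT-labelled library and 34.1 FPKM in the THY1-labelled library. These 5 genes ran with the column headings and against the titles, as Kit and Thy1 did. They were picked from the list of 12 after their values were seen, so they are no independent check of the titles. Of the others, Uchl1 ran opposite to Nanos2 and Nanos3, at 3.26 FPKM in the KIT-labelled library and 49.5 FPKM in the THY1-labelled library. Dmrt1 and Sohlh2 were listed at 0 in the KIT-labelled library and at 4.98 and 5.86 FPKM in the THY1-labelled library. Sohlh1 lay within 2-fold, at 6.93 FPKM in the KIT-labelled library and 6.12 FPKM in the THY1-labelled library. Sall4 stayed below 1 FPKM in both, and Zbtb16 and Lin28a were listed at 0 in both.

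The other lists were even or leaned to the KIT-labelled library. Sertoli markers were higher for 3 of 7 in the KIT-labelled library (Fshr and Vim listed at 0) and for 3 in the THY1-labelled library, with a median of -0.10. They summed to 20.97 FPKM in the KIT-labelled library, where Amh was highest at 6.71 FPKM and Clu was at 1.62 FPKM. The sum of 1246 FPKM in the THY1-labelled library rests on Clu (848 FPKM) and Vim (375 FPKM). Macrophage markers were higher for 3 of 8 in the KIT-labelled library and for 3 in the THY1-labelled library (C1qc listed at 0). Their median was -0.049, and they summed to 255 FPKM in the KIT-labelled library and 964 FPKM in the THY1-labelled library. The sum in the THY1-labelled library rests on Aif1, at 880 FPKM there and 24.5 FPKM in the KIT-labelled library. The largest part of the sum in the KIT-labelled library was C1qb, at 119 FPKM there and 16.0 FPKM in the THY1-labelled library. Medians were 2.12 for spermatid markers, 1.58 for T lymphocyte, 3.12 for endothelial and 1.70 for peritubular markers. Of 8 spermatid markers 5 were higher by at least 2-fold in the KIT-labelled library and 3 in the THY1-labelled library. In the same order, these counts were 4 and 1 of 6 usable T lymphocyte markers. They were 2 and 1 of 3 usable endothelial markers, and 4 and 2 of 6 usable peritubular markers. Spermatid markers summed to 4925 FPKM in the KIT-labelled library and 2693 FPKM in the THY1-labelled library. The largest part of the first sum was Prm1, at 2406 FPKM in the KIT-labelled library and 184 FPKM in the THY1-labelled library. That of the second was Gsg1, at 11.3 FPKM in the KIT-labelled library and 1388 FPKM in the THY1-labelled library. Peritubular markers summed to 219 FPKM in the KIT-labelled library (Dcn listed at 0) and 186 FPKM in the THY1-labelled library. T lymphocyte markers summed to 49.5 FPKM in the KIT-labelled library (Cd3g and Ptprc listed at 0) and 11.6 FPKM in the THY1-labelled library (Cd3e and Cd3g listed at 0), and endothelial markers to 62.1 FPKM in the KIT-labelled library (Pecam1 listed at 0) and 8.14 FPKM in the THY1-labelled library. The part of these cells in the levels of the methylation genes was not tested, and in bulk RNA fewer cells of a type and less RNA per cell cannot be told apart.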

How the data were processed

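The deposited tables hold 1 value per gene symbol for each library, without a unit in the header. They were taken as FPKM because the submitters' processing notes name Cufflinks 2.1.1, beside TopHat 1.4.1, CASAVA and mm9. The sources used here do not give the annotation, strand setting or filters. Samples were grouped by title.

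Differences are log2(FPKM + 1) in the KIT-labelled library minus the THY1-labelled library. Genes that reached 1 FPKM in either library were usable, and were counted by a size of 2-fold, since 1 library per group allows no test. The counting was checked on simulated data. The members and lists were chosen with earlier results of these data known. Named genes are the 10 members, Kit, Thy1, Rpph1 and, per list, up to 3 genes with the largest difference among those reaching 5 FPKM and the 1 with the highest mean. A gene that this rule names is not reported here. Markers were named where listed at 0 or after their values were seen, as were Pcna, Hdac1, Ccne1 and Mcm7.

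Transcript lengths and exon overlaps came from GENCODE M21, and start windows from RefSeq (GRCm38.p6, all 10 genes matched). No coordinate was carried to mm9. Near-identical copies were sought with blastn 2.17.0 on the same strand, at 95% identity over 200 bases. Alternatives were a pseudocount of 0.1, 3 scalings, no minimum, a minimum of 5 FPKM, and genes above 0 in both libraries. Analyses used Python 3.11.15, numpy 2.4.6 and pandas 2.3.3.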

Additional observations from a re-analysis of the deposited data

How the results depend on the processing

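The count of members at least 2-fold apart was 4 among genes above 0 in both libraries, where Hells, Dnmt3b and Dnmt3l drop out, and their median difference was -0.80 with no minimum, where Tet2 and Tdg enter. Under the pseudocount of 0.1 and the 3 scalings 2 genes were higher in the KIT-labelled library and 5 in the THY1-labelled library, as before. With a minimum of 5 FPKM these counts were 0 and 5, since Tet1 and Dnmt3l do not reach it. Scaling to a median ratio of 1, to equal upper quartiles or to equal sums that leave out Rpph1 put the median of all genes at -0.55, 0.26 and 0.22, and the members' median relative to it was -1.62, -1.63 and -1.64. Sampling of few fragments in the KIT-labelled library limits Uhrf1, Dnmt3a, Dnmt3l, Tet2 and Tdg. No paired analysis was possible because each spermatogonial group has 1 library.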
